A study of Mus musculus with 12 samples.

Results

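The enzymes described here are the deaminases of the ADAR, ADAT and APOBEC families other than ADAR2: Adar, Adarb2, Adat1, Adat2, Adat3, Apobec1 and Apobec3. They were taken by gene symbol from the authors' deposited gene table, where all 7 are among the 15191 listed genes. Through their Ensembl gene IDs, 5 of the 7 have exon bins, the counting segments of a gene, in the authors' deposited exon table, with 43 of its 156805 bins. The current Ensembl IDs of Adat3 and Apobec3 matched no ID of that table, older IDs were not tried, and their exon use was not analysed here. The question was whether other deaminases differ in level or in exon use when ADAR2, encoded by Adarb1, is absent.

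The tissue was frontal cortex of male mice of strain C57BL/6, with 6 libraries of genotype Adar2-/- Gria2R/R and 6 of genotype Adar2+/+ Gria2R/R from litter mates. Both genotypes carry the Gria2R allele, in which the genome encodes the arginine that ADAR2 otherwise writes into the mRNA of this glutamate receptor subunit. The labels give no age, litter or batch, and they do not say which cells the Adar2 deletion affects. The deposited tables hold group values only, so no spread between libraries and no depth per library can be given, and the p-values are the authors'. The conditions of the gene table are headed A and B with no genotype named. Gene differences are therefore given as log2 of condition B over condition A, in which a positive value means higher in B. The exon table names its groups, and its values are log2 of control over Adar2-/-.

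Deaminases remove an amino group from a base. ADAR1 (from Adar) and ADAR2 turn adenosine into inosine within double-stranded RNA, and ADAR1 keeps the cell's own double-stranded RNA from being sensed as viral, whereas ADAR3 (from Adarb2), made mainly in brain, binds such RNA but has no known editing activity. The ADAT enzymes make inosine in tRNA: ADAT1 beside the anticodon of alanine tRNA, and the pair ADAT2 and ADAT3 at the wobble base of the anticodon. APOBEC1 converts cytidine to uridine in mRNA, best known from apolipoprotein B, and APOBEC3 restricts retroviruses by deaminating cytidine in their DNA.

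The shared catalytic site divides these genes into a pair of types, and the coding stretches below are shown because they are the family's defining sequence. Each is 30 bases of GENCODE M21 coding sequence (build GRCm38), 5′ to 3′ on the coding strand. Capitals mark the codon for the histidine that holds the catalytic zinc, the alanine or valine codon after it, and the codon at the place of the catalytic glutamate. In the ADAR type, a pair of codons for asparagine and aspartate precedes the site by 1 codon.

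Adar (chr3:89746615-89746644, plus strand): aatgactgcCATGCCGAAatcatctcccgg
Adarb1 (chr10:77313452-77313481, minus strand): aatgactgcCACGCAGAGataatctcccga
Adarb2 (chr13:8697712-8697741, plus strand): aacgactgtCATGCTGAGatcgtggcgagg
Adat1 (chr8:111987837-111987866, minus strand): aatgacagcCATGCTGAGatcatagccaga

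Adar matched the targeted gene Adarb1 at 25 of the 30 bases, Adat1 matched it at 23 and Adarb2 at 19. Of 21794 protein-coding genes searched in their longest coding sequence, 8 (0.0367%) held this arrangement of codons in frame. The 4 genes above are among those 8. A match is a description of the letters only.

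In the second type, which is that of cytidine deaminases, the site is followed within 20 to 70 codons by a proline and a cysteine codon and, 3 codons on, another cysteine codon. Apobec3 holds it at a pair of places.

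Adat2 (chr10:13560114-13560143, plus strand): gctactcggCATGCTGAAatggtggccatt
Adat3 (chr10:80606987-80607016, plus strand): cccctgctgCATGCCGTCatggtgtgcatc
Apobec1 (chr6:122581594-122581623, minus strand): accagcaacCACGTTGAAgtcaacttctta
Apobec3, first site (chr15:79897695-79897724, plus strand): gacaacatcCACGCTGAAatctgcttttta
Apobec3, second site (chr15:79906344-79906373, plus strand): ggcaaacagCATGCAGAAatcctcttcctt

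Adat3 has no glutamate codon at the end of its capitals, and its protein is known as the partner without catalytic activity of ADAT2. With that codon required, 13 of the 21794 genes (0.0596%) held the arrangement, among them Adat2, Apobec1 and Apobec3. All 9 stretches lie within a single exon.

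The targeted gene was read first as a check. In the authors' deposited table, Adarb1 had a normalized count of 4181 on average across A and B and was 4.62-fold higher in B than in A, a log2 difference of 2.21 (adjusted p = 3.06e-126). Its exon bin E009 was higher in the control by 5.23 on the log2 scale in the authors' deposited table, and 8 of its 18 bins had an adjusted p under 0.05. Conditions A and B were not named from this gene. Markers of cortex were present: in the authors' deposited table, the excitatory neuron markers Slc17a7, Tbr1, Neurod6 and Camk2a and all 3 markers of inhibitory neurons were listed, as were 10 of 10 microglia markers. Of the genes read for thalamus, Tcf7l2, Lef1 and Prkcd were listed too, with mean counts of 50.2, 108 and 263 in the authors' deposited table. Rorb, with a mean count of 2568 in the authors' deposited table, is not specific to thalamus. Whether the tissue held thalamus was not tested.

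None of the 7 deaminases passed at an adjusted p under 0.05 in the authors' deposited table, where 3 of 15191 genes (0.0197%) did, and each of the 7 had an adjusted p of 1. Their unadjusted p was above 0.05 in each case, where 283 of all genes (1.86%) had one under 0.05. Adat1 had the smallest p of the 7, 0.112, in the authors' deposited table. In the authors' deposited table, 3 of the 7 were higher in B and 4 lower, with a median log2 difference of -0.02, while 7160 of all genes were higher, 8031 lower, and their median was -0.01. The median size of the difference, without its sign, was 0.19 for the 7 genes and 0.060 for all genes, and 4 of the 7 had a mean count under 100.

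Adar and Adarb2, the 2 other genes of the ADAR family, had the highest counts of the 7 and the smallest differences. In the authors' deposited table, Adar had a normalized count of 4333 on average across A and B and was 1.01-fold higher in A, a log2 difference of -0.02 (p = 0.981). Of all genes, 82.0% had a difference at least as large as that of Adar. Adarb2 had a mean count of 1472 and was 1.06-fold higher in A in the authors' deposited table, a log2 difference of -0.08 (p = 0.898). A difference at least as large as that of Adarb2 was found in 38.4% of genes. In GENCODE M21 Adarb2 overlaps Gm48259, Gm48261 and Gm48262 on the same strand, so its count and bins are uncertain where reads of these genes could be split. Adarb1, the third gene of the family, differed by 2.21 in the same table.

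Among the tRNA deaminases, the log2 difference was above 0 for Adat1 and Adat2 and below 0 for Adat3, none past the test. Adat1 had a normalized count of 176 on average across A and B and was 1.15-fold higher in B in the authors' deposited table, a log2 difference of 0.20 (p = 0.112). Adat2 had a mean count of 93.7 and was 1.11-fold higher in B in the authors' deposited table, a log2 difference of 0.15 (p = 0.287). Its partner Adat3 had a mean count of 31.6 and was 1.17-fold higher in A in the authors' deposited table, a log2 difference of -0.23 (p = 0.393), opposite in sign to Adat2. Whether Adat2 and Adat3 differ from each other was not tested. Both lie on chromosome 10, as the targeted Adarb1 does, and Adat3 lies nearer to Adarb1 than Adat2. Whether DNA linked to the targeted gene plays a part in their values was not tested. In GENCODE M21 Adat3 overlaps Scamp4 and Gm49322 on the same strand, so its count is uncertain where the authors' counting could split reads of these genes.

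The differences of the APOBEC genes also had opposite signs, and neither passed the test. Apobec1 had a normalized count of 58.8 on average across A and B and was 1.14-fold higher in B in the authors' deposited table, a log2 difference of 0.19 (p = 0.267). Apobec3 had a mean count of 52.8 and was 1.30-fold higher in A in the authors' deposited table, a log2 difference of -0.38 (p = 0.117). This was the largest difference of the 7 genes in size, and 3.84% of all genes differed at least as much. At the locus of Apobec3, GENCODE M21 places D730005E14Rik on the same strand and Cbx7 on the other. On the other strand, Adar also overlaps Chrnb2, Adat2 overlaps Pex3, and Adarb2 overlaps Gm10357 and Gm48260. The strand setting of the authors' counting is not known, so these counts are uncertain too.

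Levels of different genes were compared per length, as the deposited mean count over both conditions divided by the length of the GENCODE M21 transcript with the longest coding sequence. The highest was Adar at 738 counts per kb, followed by Adarb2 at 219. Enzymes that edit tRNA came next, with Adat2 at 63.9 and Adat1 at 55.8 counts per kb. The lowest were Apobec1 at 28.4, Apobec3 at 27.0 and Adat3 at 22.4 counts per kb. Adarb1 stood at 628 on this scale, between Adar and Adarb2. Adarb1 differed 4.62-fold between A and B, so this average describes neither condition. Its place in the order within A or within B was not read. With no spread between libraries, whether neighbours in this order differ cannot be said, and the transcript chosen sets each length. In bulk tissue, fewer cells that make a transcript and less transcript per cell cannot be told apart.

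**Figure D1:**
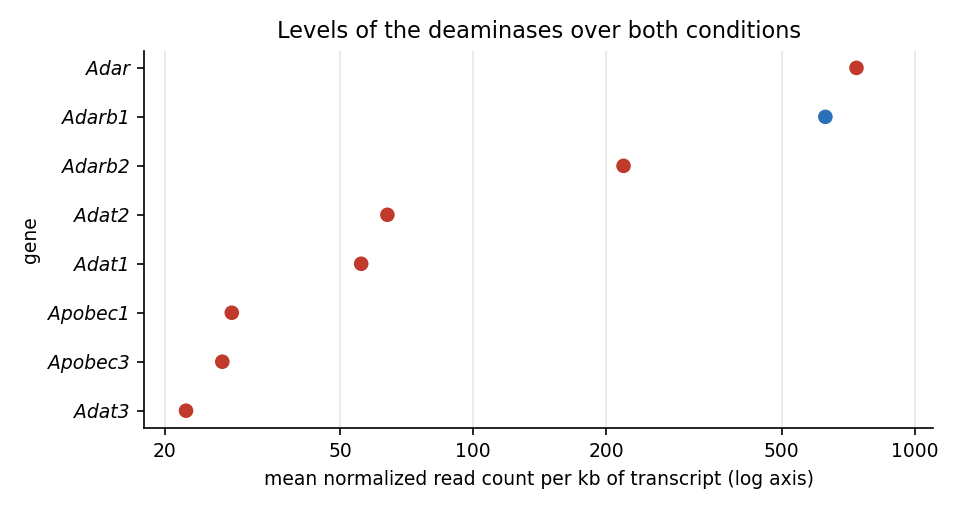
Mean normalized read count over both conditions per kb of transcript (log axis) for Adarb1 (blue) and the 7 other deaminases (red), 1 point a gene, with no error since the values are group values. Adar and Adarb1 lie highest, at 738 and 628, and the 5 genes outside the ADAR family lie at 63.9 or below. The Adarb1 point averages conditions that differ 4.62-fold.

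How much a gene differed between the conditions went with its count. Among the 2902 genes with a mean count under 100, the median difference in size was 0.17 on the log2 scale and 10% of genes exceeded 0.46. Adat2, Adat3, Apobec1 and Apobec3 fall in this range, and the difference of Apobec3, at 0.38, lies under that value. The smallest difference of any gene in this range with an unadjusted p under 0.05 was 0.29. Among the 6396 genes with a mean count from 100 to 1000, which include Adat1, the median size was 0.066 and 10% exceeded 0.20. The 0.20 of Adat1 lies just above that value, and also above the smallest difference in this range with an unadjusted p under 0.05, which was 0.18. Among the 5893 genes at 1000 or more, with Adar and Adarb2, the median was 0.038 and 10% exceeded 0.11. The smallest difference with an unadjusted p under 0.05 was 0.14 in this range. Adat2, Adat3, Apobec1, Adar and Adarb2 each had a difference smaller than that of any gene with such a p in their own range. These smallest differences are observed values over wide ranges of count and are not detection limits. Adat1 and Apobec3 exceeded those of their ranges with an unadjusted p above 0.05. Power was not computed, and the values of the 7 genes do not show equal levels.

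**Figure D2:**
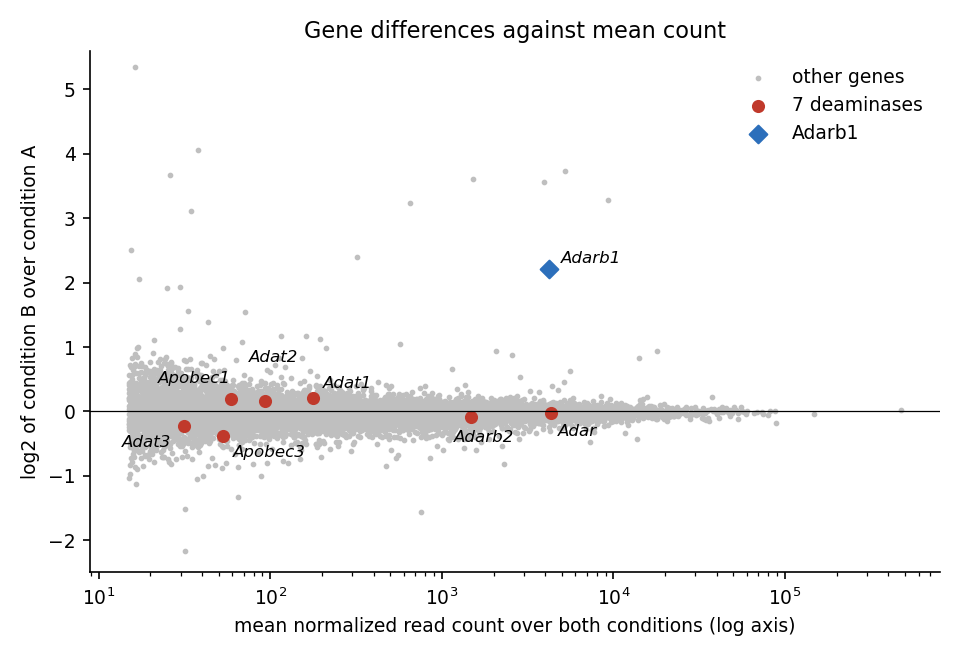
Log2 of condition B over condition A against the mean normalized read count (log axis) for all 15191 genes, with the 7 deaminases in red, Adarb1 as a blue diamond and other genes in grey. The cloud is widest at low counts, where Adat3, Apobec3, Apobec1 and Adat2 lie inside it, and Adarb1 stands outside it at 2.21.

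Exon use was compared over the 43 bins of Adar, Adarb2, Adat1, Adat2 and Apobec1. A bin value describes the use of a bin relative to the rest of its gene. In the authors' deposited table none of the 43 bins had an adjusted p under 0.05, where 11 of 149137 bins with a p (0.00738%) did. The unadjusted p was under 0.05 for 1 of the 43, a bin of Adarb2, and for 1.67% of all bins. Of the 43 bins, 20 were positive and 23 negative, and their median size was 0.060 on the log2 scale, beside 0.067 over all bins. An approximate 95% interval was computed for each bin from its deposited mean count and dispersion, a measure of the spread between libraries beyond counting error, with 6 libraries a genotype. Such intervals left out 0 for 1.42% of all bins and for 1 of the 43. That share of all bins is below what 95% intervals would leave out if no bin differed, so their coverage here is not shown.

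Adar had 21 bins, the densest coverage of the 7 genes, and its bin values lay between -0.12 and 0.18. In the authors' deposited table, the bin with the most reads was E024, with a mean count of 1120 and a log2 value of 0.03 (p = 0.665), for which the approximate interval ran from -0.10 to 0.16. The bin with the smallest p was E020, at 0.12 (p = 0.194) in the authors' deposited table. Adar makes an interferon-inducible long protein and a constitutive short one from different first exons. The bins at the low end of the numbering were E001, at 0.18 with a mean count of 78.2 (p = 0.233), E004, at -0.00081 with 383 (p = 0.992), and E005, at 0.03 with 1078 (p = 0.590), in the authors' deposited table. Which transcript each bin belongs to was not assigned, since the table gives no positions. The approximate intervals of E004 and E005 ran from -0.16 to 0.16 and from -0.10 to 0.16, and that of E001 from -0.11 to 0.47.

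Adarb2 had 15 bins with values from -0.26 to 0.40. Its highest was E007, with a mean count of 46.6 and a log2 value of 0.40 (p = 0.0276, adjusted p = 1) in the authors' deposited table, or 1.32-fold higher in the control. The approximate interval of E007 ran from 0.054 to 0.74, and 1.14% of all bins had a value at least as large in size. Its neighbours in the list were E005, at 0.23 (p = 0.263), and E008, at -0.02 (p = 0.832), in the authors' deposited table. The lowest bin of Adarb2 was E014, at -0.26 (p = 0.0999) in the authors' deposited table. The bin with the most reads was E020, with a mean count of 318 and a log2 value of -0.03 (p = 0.733, interval -0.20 to 0.14) in the authors' deposited table. By a Simes p over the 15 bins, Adarb2 had a p of 0.414.

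The remaining enzymes had few bins. Adat1 had 3, and the one with the most reads and the smallest p was E008, with a mean count of 50.4 and a log2 value of 0.09 (p = 0.488) in the authors' deposited table. Adat2 had 3, with the most reads in E006 (mean count 43.1, log2 value 0.06, p = 0.717) and the smallest p in E002 (mean count 21.4, log2 value -0.22, p = 0.338) in the authors' deposited table. The only bin of Apobec1, E002, had a mean count of 26.1 and a log2 value of -0.31 (p = 0.183) in the authors' deposited table. The approximate interval of the Apobec1 bin ran from -0.84 to 0.21. With 1 listed bin, its use relative to the rest of the gene rests on that bin alone.

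The precision differed with depth. The approximate interval reached 0.13 on the log2 scale to either side in the best measured bin of Adar and 0.20 in its median bin, 0.28 in the median bin of Adarb2, and 0.42, 0.44 and 0.52 in those of Adat1, Adat2 and Apobec1. In Adarb1, whose median bin reached 0.24, 10 of 18 bins had an unadjusted p under 0.05 and values ran from -1.88 to 5.23.

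**Figure D3:**
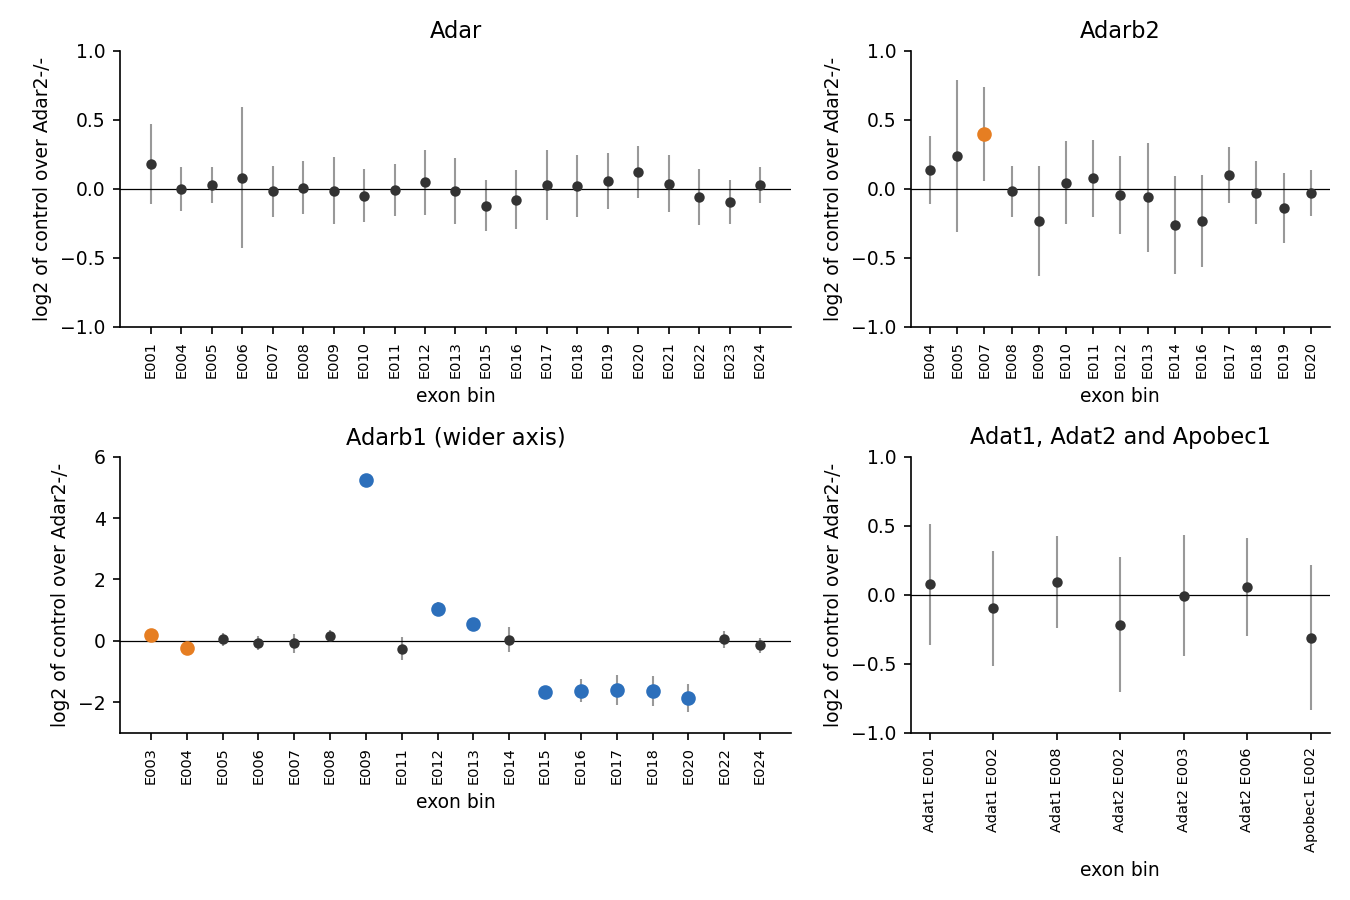
Log2 of control over Adar2-/- for each listed exon bin (horizontal axis, in bin number order) of Adar, Adarb2, Adarb1, and of Adat1, Adat2 and Apobec1 together, with approximate 95% intervals. Blue points have an adjusted p under 0.05, orange points only an unadjusted one, and the Adarb1 panel has a wider vertical axis: 8 Adarb1 bins are blue, and E007 of Adarb2 at 0.40 is the only coloured point outside Adarb1.

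Other genes that work with these enzymes were read from 6 lists, which hold 78 listed genes. Of the other zinc-dependent deaminases 8 were listed, and Adarb1 was the only one called. Without Adarb1 the median log2 difference of this list was 0.05, and its members ran from -0.12 for Cda, a cytidine deaminase of the nucleotide pool, to 0.14 for Cdadc1 in the authors' deposited table. Apobec2, Apobec4, Adad1, Adad2, Ada and Ampd1 were not listed. Of the cofactors of APOBEC1 editing 7 of 8 were listed, 3 higher and 4 lower in B with a median of -0.02. Syncrip, an RNA-binding partner of APOBEC1, had the smallest p of these at 0.218 with a log2 difference of 0.10 in the authors' deposited table.

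Of the enzymes that act on the tRNA anticodon loop, as ADAT1, ADAT2 and ADAT3 do, 28 of 33 were listed, 15 higher and 13 lower in B with a median of 0.0037. None was called, and 1 had an unadjusted p under 0.05. This was Cdk5rap1, which adds a methylthio group beside the anticodon of mitochondrial tRNAs, with a mean count of 457 and a log2 difference of -0.22 (p = 0.037) in the authors' deposited table. All 8 genes that repair deaminated bases in DNA were listed, with 4 higher, 4 lower and none called. Tdg, a glycosylase that removes thymine and uracil opposite guanine, had a mean count of 744 and a log2 difference of 0.37 (p = 6.07e-04, adjusted p = 0.787) in the authors' deposited table.

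Adar and Apobec3 are both known to be induced by interferon, and ADAR1 acts on the RNA that the sensors bind, so these lists were read beside them. Of 10 listed sensors of double-stranded RNA, 3 were higher and 7 lower in B, with a median of -0.05. The sensor gene with the smallest p was Oas1a, with a mean count of 25.5 and a log2 difference of -0.78 (p = 0.0296, adjusted p = 1) in the authors' deposited table. Of 17 listed interferon-induced genes, 2 were higher and 15 lower in B, with a median of -0.16, beside 8031 of 15191 genes lower and a median of -0.01 over all genes. None of the 17 was called. Genes of this list can respond together, so they are not independent of each other. Without library values, whether a few libraries set the sign of most of them cannot be seen. An unadjusted p under 0.05 was listed for Ifit3, at -0.39 (p = 2.71e-04, adjusted p = 0.457), and for Ifit1, at -0.47 (p = 0.0266, adjusted p = 1), in the authors' deposited table. Apobec3, at -0.38 and not called, had the sign of most of this list, while Adar, at -0.02 and not called, lay nearer to 0 than the list's median. Whether interferon plays a part in these values was not tested.

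**Figure D4:**
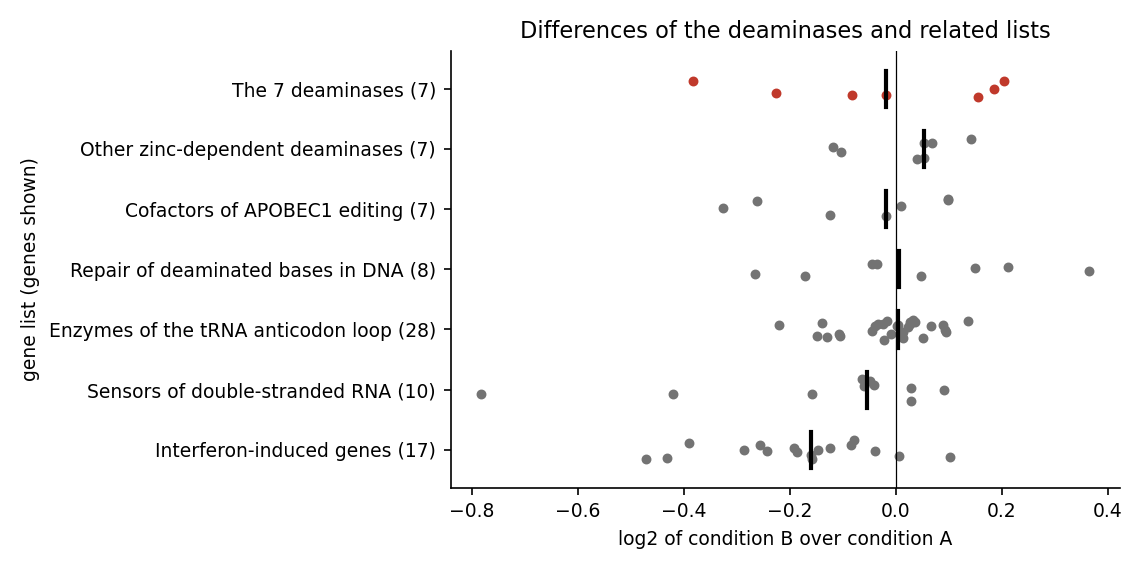
Log2 of condition B over condition A for the 7 deaminases (red) and the listed genes of 6 related lists (grey, Adarb1 left out), 1 point a gene, with a black bar at each median and scatter in the vertical direction for legibility only. The interferon-induced genes have the lowest median, at -0.16, and the 7 deaminases run from -0.38 to 0.20.

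RefSeq promoters (build GRCm38.p6, 250 bases before to 50 after a start) were searched for the core of the interferon response element, GAAANNGAAA, on both strands. Of the 7 deaminases, 6 had a promoter entry. Of the 10 promoters of these 6 genes and Adarb1, 1 held the motif. It was 1 of the 2 Apobec3 promoters, and none of the 3 Adar promoters held it. The motif was in 3.44% of 32851 promoters of all genes and in 7 of 18 promoters of the interferon-induced list. A count of 1 in 10 is too small to set apart from the share over all genes. The Apobec3 stretch is shown because it was the only hit in these promoters, with capitals on the motif. The motif reads on the opposite strand and ends 130 bases before the start of that RefSeq entry. In GENCODE M21 the Apobec3 gene begins further upstream, at chr15:79891659, so the stretch lies inside the annotated gene.

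Apobec3 promoter (chr15:79892258-79892287, plus strand): catcagttagTTTCCCTTTCtctttgcgat

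The absence of these letters from the Adar windows says nothing of the factor, and no measurement of binding was used here.

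Apobec1 and Apobec3 are also made by microglia and other leukocytes. Of the 10 microglia markers 2 were higher and 8 lower in B, with a median log2 difference of -0.10, a range of -0.28 to 0.03 and a summed mean count of 13684 over both conditions. The unadjusted p was above 0.05 for all 10 microglia markers. Of 8 genes read for other leukocytes 3 were listed, and Ptprc among them is also made by microglia. Ptprc had a log2 difference of -0.07, S100a8 one of 1.27 (p = 0.342) and S100a9 one of 1.39 (p = 0.242) in the authors' deposited table, and the markers of T and B lymphocytes were not listed. The part of these cells in the values of Apobec1 and Apobec3 was not tested.

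The authors' deposited editing table, with 143 sites in 95 genes, lists no site in any of the 7 deaminases and none in Adarb1.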

How the data were processed

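Total RNA libraries were made with a stranded kit after ribosomal RNA removal, per the labels. TopHat2 2.0.6, Bowtie2 2.02.0, HTSeq, DESeq and SAMtools 01.19.0 are named with build mm9 in the submitters' processing notes, without roles, the exon table is named for DEXSeq, and no source used here gives its version, the counting annotation or the strand setting. The authors deposited means of normalized counts over both conditions, a signal with no value per library. They also deposited ratios of B over A, log2 values, p-values and adjusted p-values, and for exon bins a dispersion score. The deposited editing table gives the percent of edited reads per genotype, and here only its gene names were used. The lowest deposited mean was 15.0 for a gene and 20.0 for a bin, and 7668 bins have no p. The 2 columns of means per condition A and B were not used, since their headers match no sample label.

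Calls are the authors' adjusted p under 0.05. Computed here were shares, lists, counts per kb, Simes and Benjamini-Hochberg values, and bin intervals of 1.96 SE. For the intervals, the variance of the log ratio is taken as (1/mean + dispersion) in each library under a negative binomial. The intervals were tested on data simulated from that same model, which cannot show their coverage for the deposited bins. Python 3.11.15, pandas 2.3.3 and GENCODE M21 were used, and no GRCm38 coordinate was set beside an mm9 one. Named genes were the 7 deaminases and Adarb1, and from each list every gene with an unadjusted p under 0.05 and the one with the smallest p. Named bins were each gene's highest count, smallest p and every unadjusted p under 0.05, and a few other genes and bins were chosen after their values were seen. The genes and lists were chosen with earlier results of these data known. Exon bins of 1 gene share its reads and are not replicates.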

Additional observations from a re-analysis of the deposited data

How the results depend on the processing

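With Benjamini-Hochberg or Bonferroni adjustment over the listed genes, an adjusted p under 0.1, or a mean count of at least 100 (which 3 of the 7 deaminases reach), 0 of the 7 deaminases passed in the gene table, and of the 78 related genes only Adarb1 did. The smallest unadjusted p of the 7 was 0.112 in the authors' deposited table, so none of these settings could have passed any of them. With the same adjustments over the listed bins, an adjusted p under 0.1, a mean count of at least 50 (32 of the 43 bins) or a Simes p per gene, 0 of the 43 bins passed. The smallest unadjusted p of these bins was 0.0276 in the authors' deposited table, too large to pass after adjustment over so many bins. At an unadjusted p under 0.05, 0 of the 7 genes and 1 of the 43 bins lay under the threshold in the authors' deposited tables, made with DESeq for genes. Centring on the median of all genes, -0.0063, or on that of genes with a mean count of at least 100, -0.0067, turned no sign of the 7 genes. It could not, since both medians are smaller in size than each of the 7 differences. Leaving out libraries, count filters per library and other count tests were not run, as the tables hold group values. No paired analysis was possible because the 3 tables give no library its own value, and because no number in the labels recurs in both genotypes. Depth limits Adat2, Adat3, Apobec1 and Apobec3 most, with mean counts under 100.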
